A study of Homo sapiens with 16 samples.

Results

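The comparison described here is the first 24 h of Runx2 induction, Dox day 1 against vehicle day 1, which takes 8 of the 16 arrays of the series. Both groups are cultures of C4-2B/Rx2dox, a subline of the prostate cancer line C4-2B, which descends from LNCaP and is castration-resistant. The subline carries a lentiviral vector in which doxycycline (Dox) turns on a Flag-tagged mouse Runx2 cDNA, while the Ubi-c promoter drives the Dox-dependent activator rtTA3 and the hygromycin resistance marker in all cells, with or without Dox. The Dox day 1 group received 250 ng/ml Dox for 24 h and the vehicle day 1 group received water for the same 24 h, with 4 cultures and 4 arrays in each. The other 8 arrays hold Dox day 2 and vehicle day 2 (48 h). They enter the quantile normalization and the choice of each gene's probe and of the brighter genes. They also enter the estimate of the spread and the comparison of the days. The cells were selected with hygromycin after transduction, whether they are a pool or a clone is not given in the sources used here, and the subline with the inactive Runx2 mutant is not analysed here, so Dox itself and Runx2 cannot be told apart here.

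Runx2 is a transcription factor of the Runt family that binds DNA through its Runt domain, most strongly together with its partner CBFβ, and either raises or lowers the transcription of its targets. It is best known as the regulator of osteoblast differentiation and of hypertrophic cartilage, and it is ectopically active in metastatic prostate and breast cancer. Luminal prostate cells such as C4-2B are otherwise governed by the androgen receptor, with FOXA1, HOXB13 and SPDEF among its partners.

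The labels were checked as far as the arrays allow. The array's RUNX2 probe targets the human transcript and did not follow the mouse cDNA. It read 5.47, 4.62, 4.83 and 4.70 with Dox against 4.93, 4.48, 4.84 and 5.07 with vehicle (log2 intensity, replicates 1 to 4). RUNX1 and RUNX3 were not above background on any of the 8 arrays. CBFB, the gene of CBFβ, lay at 7.95, 8.01, 7.93 and 7.86 with Dox and at 8.58, 8.63, 8.61 and 8.57 with vehicle, so that the groups did not overlap (log2 fold change -0.66, adjusted p = 6.4e-08). All 10 measured luminal prostate markers were above background on the 8 arrays. Of these, 6 fell and 2 rose with Dox, with the summed level of the list at 12.93 to 12.97 with Dox and 13.41 to 13.50 with vehicle (log2). None of 3 basal markers was above background, and of 5 stromal, 4 endothelial and 4 neuroendocrine markers 1 each was, namely COL1A1, VWF and SYP. The blood list had 1 of 4, HBB (summed level 7.33 to 11.23 with Dox and 7.37 to 8.19 with vehicle), and the globins set 1 array, Dox replicate 4, apart. HBB read 7.58, 6.53, 8.18 and 11.19 with Dox against 6.70, 6.36, 7.63 and 7.22 with vehicle, and HBA2 read 6.99, 5.97, 7.64 and 10.09 with Dox against 6.22, 6.08, 6.47 and 6.19 with vehicle. Neither of these globins passed the test (adjusted p = 0.45 and 0.4). HBM, another globin, went the other way, at 5.21, 5.33, 5.22 and 5.35 with Dox against 5.71, 6.22, 6.04 and 6.12 with vehicle (log2 fold change -0.75, adjusted p = 2.5e-05), not above background on any Dox array and with no excess on Dox replicate 4. The part of replicate 4's globin signal in other values was not tested beyond leaving that array out, which gives 245 rises and 62 falls of at least 2-fold in place of the 233 and 61 below. Across the 8 arrays 40.1% to 42.0% of the probes were above background, and arrays correlated at r = 0.995 to 0.996 within Dox day 1, 0.993 to 0.995 within vehicle day 1 and 0.985 to 0.987 between them.

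The early response was broad in number and mostly small, with similar numbers of rises and falls after quantile normalization. Of 16922 genes, each represented by its brightest probe, Dox raised 1806 (10.7%) and lowered 1948 (11.5%), each with limma's adjusted p under 0.05. Among the brighter 40% of genes the shares were 20.7% higher and 23.1% lower. With median scaling instead of quantile normalization 1982 of all genes were higher and 1634 lower, so the side with more calls depends on the scaling. The Dox and vehicle arrays did not overlap for 24.8% of all genes. The median fold of the higher genes was 1.37 and that of the lower genes 1.33, and 66.4% and 77.0% of them changed less than 1.5-fold. Large changes, by contrast, were mostly rises. At least 2-fold higher were 233 genes (1.38%), at least 3-fold 84, at least 4-fold 43 and at least 8-fold 8. At least 2-fold lower were 61 genes (0.36%), at least 3-fold 8 and at least 4-fold 2, with none at 8-fold. How background was handled moved the 2-fold counts. Signals left uncorrected gave 93 rises and 17 falls of this size, an offset of 50 gave 135 rises and 27 falls, and rises outnumbered falls in both. Genes raised at least 2-fold had a median level of 8.01 with Dox and 6.51 with vehicle, and 60 of the 233 (25.8%) were not above background on any vehicle array. Those lowered at least 2-fold had a median level of 6.91 with Dox and 8.28 with vehicle, and 11 of the 61 (18.0%) were not above background on any Dox array.

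**Figure D1:**
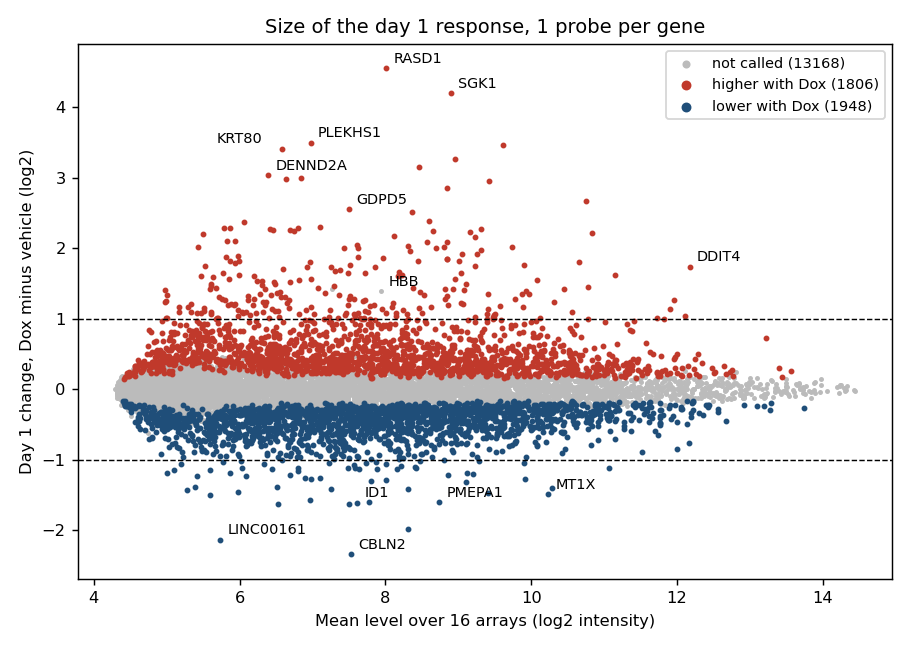
Change of each of the 16922 genes on day 1 (Dox minus vehicle, log2) against its mean level over the 16 arrays (log2 intensity), with called genes in red (higher with Dox) and blue (lower with Dox), genes not called in grey, and dashed lines at a 2-fold change. The rises reach 4.55 log2 units (RASD1) and the falls -2.34 (CBLN2), and 233 called genes lie above the upper line against 61 below the lower one.

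The 5 largest rises among the genes that the study's own text and tables name were RASD1, a Ras-like GTPase inducible by glucocorticoids (23.5-fold as measured, with 1 of 4 vehicle arrays above background), SGK1, a serum- and glucocorticoid-regulated kinase (18.4-fold), PGC, the precursor of gastricsin (11.1-fold), PIP, a secreted prolactin-induced protein (9.61-fold), and GSTA1, a glutathione transferase (8.92-fold). The corresponding falls were CBLN2, a secreted cerebellin (5.07-fold), RPRML, a Reprimo-like protein (3.94-fold), RGS2, which turns off G protein signaling (3.1-fold), ADAMTS1, a secreted metalloprotease (3.08-fold), and MYB, a transcription factor (2.96-fold). Of the 233 genes raised at least 2-fold, 165 are outside that set, and of the 61 lowered, 37 are. The study's additional files also list every probe with its fold change, so a gene outside that set is not one the study left unreported. The following paragraphs turn to these genes.

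Among the rises outside that set, 6 of 15 with roles in membrane traffic, autophagy or membrane binding are given together. PLEKHS1, a pleckstrin homology domain protein (chromosome 10, 113751682 to 113783429, GRCh38.p14), had the largest measured fold, although KRT80, below background with vehicle, has only a bound and may exceed it. PLEKHS1 read 8.94, 9.18, 9.19 and 9.20 with Dox against 5.65, 5.62, 5.46 and 5.77 with vehicle, an 11.3-fold rise (log2 fold change 3.50 with a standard error of 0.079, adjusted p = 3.9e-15). Its vehicle values lay only just above background, whose lowest passing level on these arrays was 5.42 to 5.52. On day 2 no vehicle array was above background for it. Both DENND2A and DENND2B, DENN domain proteins that activate RAB GTPases, came up from background. DENND2A lay at 7.75, 7.66, 7.92 and 7.81 with Dox and at 4.55, 4.84, 4.86 and 4.73 with vehicle, and since no vehicle array was above background it rose at least 4.98-fold (adjusted p = 8.1e-14). DENND2B lay at 7.28, 7.12, 7.37 and 7.09 with Dox and at 4.92, 4.71, 5.21 and 4.94 with vehicle, at least 3.36-fold higher (adjusted p = 1.4e-10). Of 3 further DENND2B probes 1 was also higher and 2 did not pass the test. RIN2, an exchange factor for RAB5, was at 9.80, 9.83, 9.78 and 9.78 with Dox and 7.68, 7.72, 7.97 and 7.71 with vehicle, 4.07-fold higher (adjusted p = 4.3e-12). GABARAPL1, a member of the ATG8 family that coats autophagosomes, averaged 9.48 ± 0.097 with Dox and 7.24 ± 0.17 with vehicle (SD, 4 arrays each), 4.73-fold higher (adjusted p = 1e-11). DEPP1, a FOXO-induced regulator of autophagy, came from below background and was at least 2.9-fold higher (7.22, 6.88, 6.99 and 6.91 with Dox, 4.75, 4.84, 4.64 and 4.62 with vehicle; adjusted p = 2.6e-10). In each of these 6 genes the lowest Dox array lay more than 1 log2 unit above the highest vehicle array, where the choice of the genes already required no overlap.

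Given next are 4 genes of epithelial, secreted or cell surface proteins. KRT80, a type II keratin of epithelia (chromosome 12, 52168996 to 52192014), read 8.66, 8.45, 8.40 and 8.40 with Dox against 5.02, 4.66, 5.21 and 5.36 with vehicle. No vehicle array was above background, and the rise was at least 8.07-fold (adjusted p = 2.3e-12), the largest such bound of the comparison. A second KRT80 probe was not above background on any Dox or vehicle array of day 1. DMBT1, a mucosal scavenger receptor glycoprotein, was at least 2.25-fold higher (6.70, 6.56, 6.74 and 6.53 with Dox, 4.49, 4.40, 4.31 and 4.53 with vehicle; adjusted p = 1.8e-11). BPIFB4, of the bactericidal/permeability-increasing fold family, was at least 2.01-fold higher (6.28, 6.50, 6.60 and 6.52 with Dox, 4.35, 4.36, 4.37 and 4.41 with vehicle; adjusted p = 2.1e-13). The vehicle values of these 3 genes carry no order among themselves, being at background. GDPD5, a cell surface phosphodiesterase that cleaves lipid anchors, was above background throughout. It lay at 8.59, 8.36, 8.48 and 8.42 with Dox and at 5.89, 5.95, 5.85 and 5.95 with vehicle, 5.87-fold higher (adjusted p = 1.1e-11).

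The remaining 5 large rises follow. TBX10, a T-box factor, was 4.8-fold higher (7.68, 7.71, 7.66 and 7.54 with Dox, 5.44, 5.53, 5.41 and 5.15 with vehicle; adjusted p = 1.1e-10), with 1 vehicle array above background. LINGO4, a leucine-rich repeat membrane protein, was 4.81-fold higher (adjusted p = 5.3e-11), also with 1 vehicle array above background. ZDHHC11, a palmitoyltransferase of the DHHC family, rose 4.25-fold (9.14, 9.42, 9.47 and 9.48 with Dox, 6.93, 7.54, 7.40 and 7.28 with vehicle). AUTS2, a chromatin regulator of neural development, rose 4.08-fold (9.06, 9.16, 9.09 and 9.29 with Dox, 7.10, 7.30, 7.01 and 7.08 with vehicle), and TCEA2, a transcription elongation factor, rose 4.00-fold (adjusted p = 2.5e-10, 1.9e-12 and 1.2e-11 for these 3 genes). Their Dox and vehicle arrays did not overlap, which the choice of the genes required. A second TCEA2 probe did not pass the test, and a second ZDHHC11 probe was not above background on any array of day 1.

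The falls outside that set reached 4.39-fold as measured. LINC00161, a long non-coding RNA (chromosome 21, 28539318 to 28540355), was lost to background. It read 4.88, 4.81, 5.08 and 4.80 with Dox against 7.28, 6.97, 6.85 and 7.01 with vehicle, at least 3.04-fold lower (adjusted p = 4.1e-10). The protocadherin PCDH7 was at 6.91, 6.80, 6.91 and 6.54 with Dox and 8.10, 8.21, 8.22 and 8.31 with vehicle, 2.68-fold lower (adjusted p = 2.4e-07), and PCDH20 fell at least 1.55-fold (4.66, 4.55, 4.76 and 4.56 with Dox, 6.15, 6.13, 5.97 and 5.99 with vehicle; adjusted p = 8.4e-08). The other PCDH7 probes were not above background on any of the 8 arrays. No other protocadherin of the 67 measured passed the test, and 63 of the 67 were not above background on any of the 8 arrays. ABLIM1, an actin-binding LIM protein, fell 2.61-fold (6.01, 5.56, 5.55 and 6.08 with Dox, 7.13, 6.99, 7.36 and 7.26 with vehicle), and CORO2A, a coronin that binds actin, fell 2.39-fold (6.39, 6.44, 6.53 and 6.35 with Dox, 7.67, 7.71, 7.67 and 7.69 with vehicle; adjusted p = 1.5e-06 and 1.5e-10 for the pair). LRFN2, a synaptic adhesion protein, fell at least 1.66-fold (adjusted p = 9.3e-08).

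The other falls follow. ID1, a helix-loop-helix inhibitor that BMP signaling induces (chromosome 20, 31605289 to 31606510), read 7.40, 7.11, 7.16 and 7.18 with Dox against 8.92, 8.88, 8.69 and 8.78 with vehicle, 3.04-fold lower (log2 fold change -1.61 with a standard error of 0.11, adjusted p = 5.7e-09). PMEPA1, a membrane protein that dampens TGF-β signaling, read 7.97, 7.87, 7.86 and 7.74 with Dox against 9.39, 9.48, 9.59 and 9.38 with vehicle, 3.03-fold lower (adjusted p = 4.6e-11). CDCA7, a nuclear protein of cycling cells, fell 3.04-fold (7.30, 7.37, 7.21 and 7.01 with Dox, 8.78, 8.91, 8.75 and 8.87 with vehicle; adjusted p = 2.1e-10). All 3 separated Dox from vehicle by more than 1 log2 unit on every array, where the choice of the genes already required no overlap. A second probe of ID1 and a second probe of CDCA7 were not above background on any array of day 1. MT1X, a metal-binding metallothionein, fell 2.81-fold (9.31, 9.33, 9.26 and 9.45 with Dox, 10.81, 10.94, 10.68 and 10.90 with vehicle), STEAP2, a prostate metalloreductase, 2.41-fold and VGF, a protein of neurosecretory granules, 2.43-fold (adjusted p = 9.3e-11, 4e-11 and 3.3e-10 for these 3 genes). CIDEB, a protein of lipid droplets and lipoprotein assembly, fell at least 1.97-fold (5.09, 5.07, 4.72 and 4.75 with Dox, 6.36, 6.38, 6.31 and 6.56 with vehicle; adjusted p = 6.9e-08). FJX1, a secreted relative of the Drosophila four-jointed protein, fell 2.74-fold with 2 of 4 Dox arrays above background, and RWDD2A, an RWD domain protein, 2.48-fold (adjusted p = 1e-08 and 5.7e-11).

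**Figure D2:**
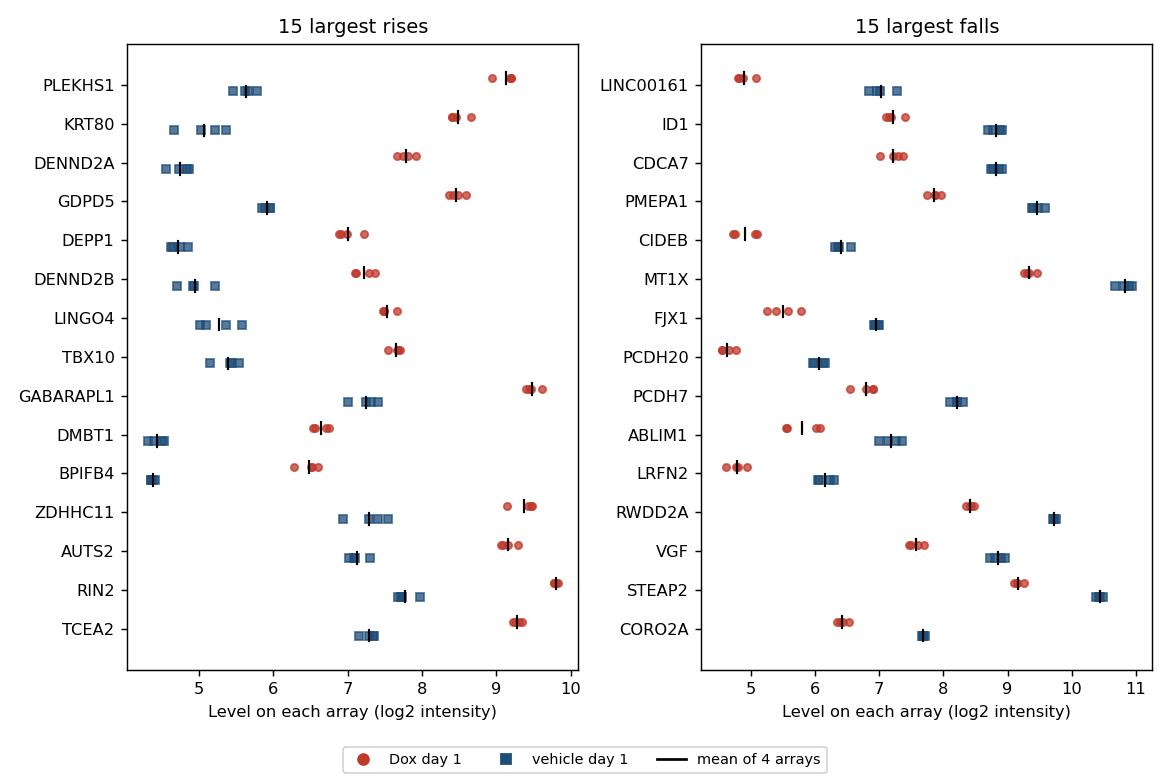
Level of the 15 genes with the largest rises (left) and the 15 with the largest falls (right) outside the set named in the study's own text and tables, on each of the 4 Dox day 1 arrays (red circles, upper row of each gene) and the 4 vehicle day 1 arrays (blue squares, lower row), in log2 intensity, with the mean of 4 arrays as a black bar. Dox and vehicle arrays do not overlap for any of the 30 genes, which the choice of the genes required, and the widest gap on the left is that of PLEKHS1 (9.13 against 5.62 on average).

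The detection p-value, the share of the array's negative controls brighter than the probe, gives another view of the early response, namely which genes crossed the background. With Dox, 103 genes (0.609%) were above background (detection p under 0.01) on 4 of 4 arrays and on none of the 4 vehicle arrays. The reverse held for 32 genes (0.189%), which vehicle cells expressed above background and Dox-treated cells did not. All 103 genes switched on passed limma's test on the same signals, as did 29 of the 32 switched off, the exceptions being MDM1, NCAPH and ZNF431. The rule that chose these genes already separates the groups, so passing the test is no further support. A crossing does not mean a large change. The bound on the fold ran from 1.05 to 8.07 (median 1.4) for genes switched on and from 1.07 to 3.04 (median 1.26) for genes switched off, and it reached 2-fold for 18 and 1 of them. When the absent group was held to a detection p of at least 0.05 on its 4 arrays, 27 genes were switched on and 3 switched off.

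Of the 10 genes switched on with the largest change, 4 are enzymes, signaling molecules or scaffolds not yet described here. AGXT, the peroxisomal aminotransferase that detoxifies glyoxylate, read 7.73, 7.62, 7.47 and 7.48 with Dox against 4.82, 4.48, 4.58 and 4.50 with vehicle, at least 4.32-fold higher (adjusted p = 2.1e-13). SDCBP2, a PDZ scaffold also known as syntenin-2, read 7.08, 7.23, 7.14 and 7.32 with Dox against 4.89, 5.16, 4.66 and 4.59 with vehicle, at least 3.31-fold higher (adjusted p = 3e-11), while its 3 other probes were not above background. THRSP, a nuclear inducer of lipid synthesis, was at least 2.7-fold higher and EDN2, the vasoactive peptide endothelin 2, at least 2.96-fold higher (adjusted p = 1.3e-10 and 7.4e-10). On the Dox arrays THRSP lay between 6.68 and 7.04 and EDN2 between 6.95 and 7.11, far from their vehicle values of 4.38 to 4.85 and 4.81 to 5.06.

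Of the 10 genes switched off with the largest change, 6 are not yet described. MSMB, the β-microseminoprotein that the prostate secretes, read 4.91, 4.97, 4.74 and 4.73 with Dox against 6.13, 6.02, 5.98 and 6.16 with vehicle, at least 1.57-fold lower (adjusted p = 5.9e-08). IGF1, the insulin-like growth factor, read 4.55, 4.54, 4.76 and 4.61 with Dox against 5.99, 5.95, 5.44 and 5.68 with vehicle, at least 1.26-fold lower (adjusted p = 8.2e-06). STC1, a secreted stanniocalcin, fell at least 1.63-fold (5.14, 4.92, 4.89 and 4.81 with Dox, 6.35, 6.42, 5.88 and 5.86 with vehicle; adjusted p = 5.5e-07). Both secreted factors spread more among the vehicle arrays than with Dox, where all values lay at background. CDC42EP1, an effector of the GTPase CDC42, TTC29, a protein of the cilium, and TRIM36, a ubiquitin ligase, fell at least 1.67-fold, 1.31-fold and 1.92-fold (adjusted p = 1.1e-05, 8.2e-06 and 5.5e-06). Further probes of CDC42EP1 and TRIM36 were not above background.

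**Figure D3:**
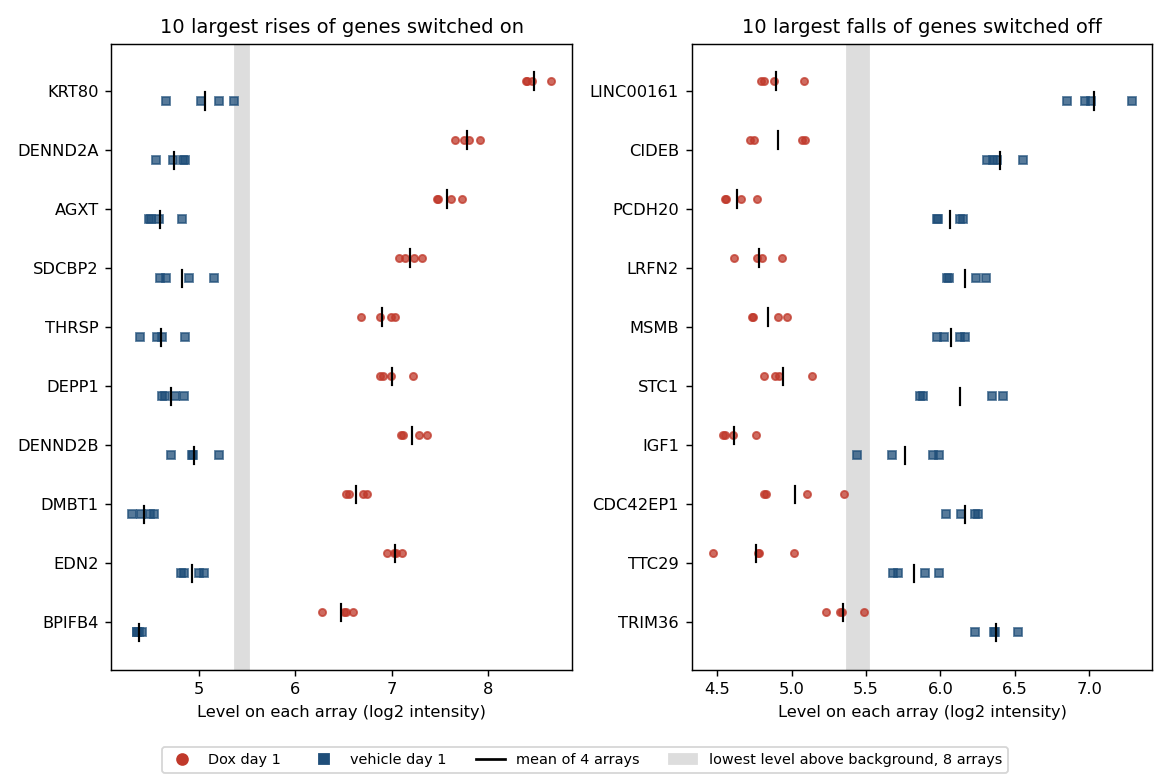
Level (log2 intensity) of the 10 genes switched on (left) and the 10 switched off (right) with the largest changes, on the 4 Dox day 1 arrays (red circles, upper row of each gene) and the 4 vehicle day 1 arrays (blue squares, lower row), with the mean as a black bar and the lowest level that counted as above background on the 8 arrays as a grey band. KRT80 lies farthest from the band with Dox, and the genes switched off start close to it with vehicle, so that their bounds are small.

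The promoters of some of these genes are shown because the Runt domain recognises a short core sequence, searched here as ACCACA and its reverse complement TGTGGT (both strands, overlapping matches allowed). Each stretch runs from 250 bases before to 50 bases after the transcription start (RefSeq, GRCh38.p14), and capitals mark the core. The first 2 belong to the 2 largest rises of this kind that have an entry and hold no core, the other 2 to a large fall and to a gene switched off that do hold it:
PLEKHS1, chr10:113751432-113751731, plus strand: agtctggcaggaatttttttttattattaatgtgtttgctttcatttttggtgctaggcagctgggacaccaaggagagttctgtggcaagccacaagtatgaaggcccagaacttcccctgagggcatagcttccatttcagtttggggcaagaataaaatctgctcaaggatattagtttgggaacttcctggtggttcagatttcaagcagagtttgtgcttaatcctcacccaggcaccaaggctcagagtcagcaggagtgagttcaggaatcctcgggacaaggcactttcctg
DENND2A, chr7:140640764-140641063, minus strand: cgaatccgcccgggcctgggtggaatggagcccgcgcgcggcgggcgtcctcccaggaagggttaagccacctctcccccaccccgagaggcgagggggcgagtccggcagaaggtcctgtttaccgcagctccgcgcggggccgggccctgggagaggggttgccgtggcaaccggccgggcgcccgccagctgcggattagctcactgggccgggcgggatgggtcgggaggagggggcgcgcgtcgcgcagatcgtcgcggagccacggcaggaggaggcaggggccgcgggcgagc
CDCA7, chr2:173354622-173354921, plus strand: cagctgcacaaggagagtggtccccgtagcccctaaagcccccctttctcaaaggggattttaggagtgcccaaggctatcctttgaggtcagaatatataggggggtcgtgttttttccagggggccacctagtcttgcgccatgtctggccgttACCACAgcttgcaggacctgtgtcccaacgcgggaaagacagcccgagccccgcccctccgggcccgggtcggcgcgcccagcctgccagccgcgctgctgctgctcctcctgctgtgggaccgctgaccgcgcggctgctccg
IGF1, chr12:102481698-102481997, minus strand: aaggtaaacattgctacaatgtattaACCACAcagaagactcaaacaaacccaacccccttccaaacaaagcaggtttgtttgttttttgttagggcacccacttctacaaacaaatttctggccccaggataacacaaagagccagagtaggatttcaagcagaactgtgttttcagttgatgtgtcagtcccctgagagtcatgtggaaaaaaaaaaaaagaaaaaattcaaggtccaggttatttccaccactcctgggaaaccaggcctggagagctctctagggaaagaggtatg
The core starts at position -94 of CDCA7 and at -224 of IGF1, counted from the transcription start. Of 183 genes raised at least 2-fold with a promoter entry 14 hold the core (7.65%), of 50 lowered genes 3 (6.0%), of 84 switched on 6 (7.14%) and of 25 switched off 2 (8.0%). Over the 13567 measured genes with an entry the share is 10.7%, and 13.1% of all 27305 promoters given hold it. The median GC content was 67.7% for the raised, 68.7% for the lowered and 63.0% for all measured genes. A match of these letters is a description and not a binding site, and binding outside the window was not examined.

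To see which kinds of genes the early response took in, 161 gene lists and symbol families were counted, and those described here were picked after their counts were seen. The shares are read against 10.7% higher and 11.5% lower over all genes, whose median log2 fold change was -0.006. A class of mostly silent genes has little room for calls, and a class of mostly bright genes has more. The shares among brighter genes are given for some classes. Near-identical members of a family can share signal through cross-hybridization, which was not tested.

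**Figure D4:**
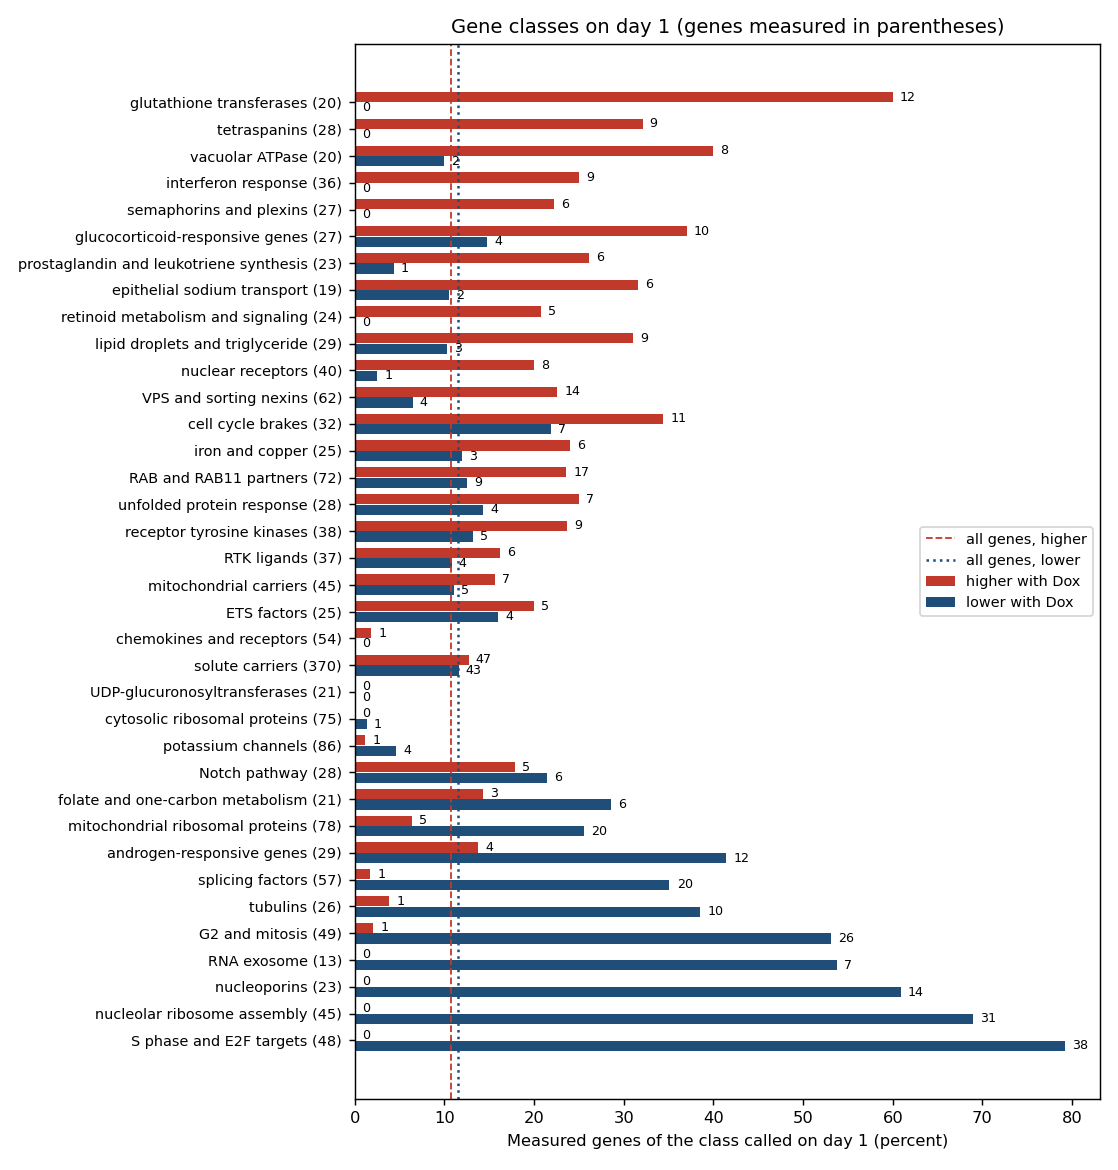
Percent of the measured genes of each class (number in parentheses) that were called higher (red, upper bar) or lower (blue, lower bar) with Dox on day 1, with the number called beside each bar and the percents over all genes as dashed and dotted lines. S phase genes (38 of 48) and nucleolar genes (31 of 45) stand out on the lower side and glutathione transferases (12 of 20) on the higher side.

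Of 20 glutathione transferases, which couple glutathione to electrophiles, 12 were higher, none lower and 8 did not pass (median log2 fold change 0.376), 3 of the 20 being genes the study names. Besides GSTA1, the members GSTA2 (at least 1.85-fold), GSTM1 (2.11-fold) and GSTA4 (2.05-fold) rose (adjusted p = 3.4e-11, 3.7e-08 and 5.6e-10). The 370 solute carriers split evenly, 47 higher and 43 lower, and 12 rose and 1 fell at least 2-fold. Over all genes rises of this size also outnumbered falls, with 233 (1.38%) against 61 (0.36%). SLC5A1, the intestinal sodium-glucose cotransporter, rose at least 2.09-fold, SLC52A3, a riboflavin transporter, at least 2.52-fold, SLC37A1, a sugar phosphate exchanger, 3.33-fold and SLC7A8, which carries neutral amino acids, 2.83-fold (adjusted p = 2.1e-11, 1.7e-09, 4.8e-11 and 1.5e-10). The 1 fall of this size, 2.65-fold, was that of SLC45A3, known as prostein. Among 45 mitochondrial carriers 7 were higher and 5 lower. Of the 24 brighter carriers 20.8% were higher and 16.7% lower, near the 20.7% and 23.1% of all brighter genes. SLC25A20, the carnitine-acylcarnitine carrier of fatty acid oxidation, rose 2.79-fold (6.91, 6.77, 6.75 and 7.01 with Dox, 5.68, 5.53, 5.14 and 5.17 with vehicle, 2 of them above background; adjusted p = 4.9e-07). SLC25A35 rose 2.53-fold and SLC25A34 at least 1.68-fold (adjusted p = 5.1e-09 and 3.6e-09).

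Of 19 measured genes of epithelial sodium transport 6 were higher, 2 lower and 11 not called (median 0.112). The higher ones include SGK1, HSD11B2, the enzyme that shields the mineralocorticoid receptor from cortisol (3.89-fold), SCNN1A, the α subunit of the epithelial sodium channel (3.5-fold), and NR3C2, the mineralocorticoid receptor itself (1.6-fold; adjusted p = 1.1e-10, 2e-11 and 3.1e-05). SCNN1A read 11.48, 11.45, 11.54 and 11.37 with Dox against 9.54, 9.63, 9.72 and 9.73 with vehicle. The list of glucocorticoid-responsive genes, which shares SGK1 and HSD11B2 with it, had 10 of 27 higher and 4 lower (median 0.032), and MT1X, one of its members, fell. Among the iron and copper genes 6 of 25 were higher and 3 lower. STEAP3, a ferrireductase of endosomes, rose 2.5-fold and SLC40A1, the iron exporter ferroportin, at least 1.83-fold (adjusted p = 9.5e-09 and 4.8e-08), while STEAP2 fell.

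The lists of lipid droplet, retinoid and prostaglandin genes had more members raised than lowered. Fatty acid desaturases and elongases went the other way, with 2 higher and 4 lower of 13. Of 40 nuclear receptors 8 were higher and 1 lower (5 and 1 of the 10 brighter ones, median 0.062 over all). PPARG, the regulator of adipocyte differentiation, read 8.47, 8.63, 8.58 and 8.48 with Dox against 6.55, 6.70, 6.65 and 6.72 with vehicle, 3.69-fold higher (log2 fold change 1.88 with its standard error of 0.082, adjusted p = 2.6e-11), and a second PPARG probe was also higher. PPARD rose 2.21-fold and NR2F1 at least 1.59-fold (adjusted p = 3.5e-06 and 5.5e-08). Of 29 genes of lipid droplets and triglyceride 9 were higher and 3 lower (median 0.067), with THRSP and PNPLA2, the adipose triglyceride lipase (2.00-fold, adjusted p = 9e-07), among the rises and CIDEB and LPL, lipoprotein lipase (1.67-fold, adjusted p = 2.2e-06), among the falls. In the retinoid list 5 of 24 were higher and none lower, although its median was -0.023. DHRS3, which reduces retinal, rose 2.6-fold, PLAAT4, a retinoid-inducible phospholipase, at least 1.12-fold and TGM2, transglutaminase 2, 2.11-fold as measured with 1 of 4 vehicle arrays above background (adjusted p = 1.1e-10, 4.4e-06 and 1.4e-05). Of 23 genes of prostaglandin and leukotriene synthesis and reception 6 were higher and 1 lower (median 0.107). PTGS1, the constitutive cyclooxygenase, and PTGER4, a prostaglandin E2 receptor, were switched on (at least 1.57-fold and 1.55-fold, adjusted p = 1.2e-09 and 8.5e-07). Folate and one-carbon genes moved both ways, 3 higher and 6 lower of 21. FOLR1, a folate receptor, rose at least 1.43-fold and SHMT1, the cytosolic serine hydroxymethyltransferase, 1.71-fold, whereas the mitochondrial MTHFD1L fell 1.51-fold and MTHFD2 rose 1.43-fold (adjusted p = 3.6e-10, 1.1e-07, 7.2e-05 and 5.9e-06).

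Receptors and adhesion molecules changed in both directions. Of 38 receptor tyrosine kinases 9 were higher and 5 lower, and of the 10 brighter ones 6 were higher and 4 lower, so that each of these 10 was called. MERTK, a receptor of the TAM family (4.01-fold), TYRO3, another of that family (1.82-fold), and the collagen receptor DDR1 (1.98-fold) rose (adjusted p = 9.1e-12, 1.7e-06 and 4.1e-06), although another DDR1 probe did not pass the test. With median scaling 3 kinases are lower instead of 5. Of the 37 ligands 6 were higher and 4 lower (2 lower without Dox replicate 1 or without Dox replicate 3). KITLG, the ligand of KIT, rose at least 2.13-fold, while IGF1 and EFNB2, an ephrin, fell (1.89-fold for EFNB2, adjusted p = 1.2e-09 for KITLG and 6.9e-09 for EFNB2). The Notch list gave 5 higher and 6 lower of 28. LFNG, the glycosyltransferase Lunatic fringe that modifies Notch, was at 10.39, 10.48, 10.37 and 10.40 with Dox and 8.61, 8.52, 8.29 and 8.53 with vehicle, 3.79-fold higher (adjusted p = 1.4e-11). NOTCH1 itself rose 1.68-fold, and of the target repressors HES2 rose at least 1.2-fold and HEY1 fell 1.7-fold with 2 of 4 Dox arrays above background (adjusted p = 0.00016, 0.002 and 7.9e-07). Of 27 semaphorins and plexins 6 were higher and none lower, led by SEMA4D (1.73-fold) and SEMA4B (1.58-fold; adjusted p = 3.8e-06 and 0.00022). With median scaling of the arrays in place of quantile normalization these counts are 7 and 1. Of 28 tetraspanins 9 were higher and none lower (median 0.085), led by CD82, a suppressor of metastasis (2.55-fold as measured, 1 of 4 vehicle arrays above background), and TSPAN15 (1.76-fold; adjusted p = 3.8e-07 and 1.6e-05).

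Vesicle traffic genes moved both ways, with more rises than falls. Of 72 genes of RAB GTPases and their RAB11 partner proteins 17 were higher and 9 lower (5 lower with median scaling), and 4 rose at least 2-fold. These were RAB43 (3.13-fold), RAB35 (2.53-fold), RAB11FIP5 (2.51-fold) and RAB11FIP4 (2.18-fold, 2 of 4 vehicle arrays above background; adjusted p = 6.9e-10, 1.5e-08, 3.3e-09 and 3e-06). Of 20 subunits of the vacuolar ATPase, which acidifies endosomes and lysosomes, 8 were higher and 2 lower (median 0.081), none by 2-fold. ATP6V0D1 led those above background (1.46-fold, adjusted p = 2.8e-05). Of 62 vacuolar protein sorting and sorting nexin genes 14 were higher and 4 lower, with 9 higher when the probes of a gene were averaged.

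Transcription factors and stress responses showed mixed changes. Of 25 ETS factors 5 were higher and 4 lower. ETV6, a transcriptional repressor that blood cell development requires, rose 3.15-fold and ELF5, a factor of luminal progenitors in breast, 2.63-fold, whereas SPDEF fell 1.87-fold and ELK4 1.74-fold (adjusted p = 2.6e-10, 1.5e-11, 3.6e-07 and 6.8e-07). Among 28 genes of the unfolded protein response 7 were higher and 4 lower. Of its 25 brighter genes 28.0% were higher and 16.0% lower, against 20.7% and 23.1% of all brighter genes. XBP1, the factor that the IRE1 branch activates by splicing, read 12.65, 12.45, 12.50 and 12.59 with Dox against 11.45, 11.34, 11.42 and 11.40 with vehicle, 2.21-fold higher (adjusted p = 5.4e-10), and SYVN1, a ubiquitin ligase of the endoplasmic reticulum, rose 1.71-fold (adjusted p = 5.2e-07). The members ATF3 and TRIB3, which lie downstream of ATF4, fell 1.91-fold and 1.53-fold (adjusted p = 8.1e-07 and 1.4e-06). Of 36 interferon-responsive genes 9 were higher and none lower (median 0.078), with GBP2 (at least 1.49-fold), IFI6 (1.94-fold) and IFIT1 (at least 1.58-fold; adjusted p = 6.9e-08, 5.2e-09 and 1.6e-06). Of 29 androgen-responsive genes 4 were higher and 12 lower (median -0.05). KLK2, a kallikrein, rose 3.77-fold, while PMEPA1, AMD1, which makes the donor for polyamine synthesis (2.78-fold), and SLC45A3 fell (adjusted p = 8e-12 for KLK2, 1.1e-09 for AMD1 and 2.2e-11 for SLC45A3). KLK3, which encodes PSA, read 9.13, 9.26, 9.10 and 9.15 with Dox and 9.16, 9.13, 9.06 and 8.95 with vehicle (adjusted p = 0.53), so that the groups overlapped. Of the luminal markers, FOXA1 fell 1.85-fold and KRT8 rose 1.98-fold (adjusted p = 1.6e-08 and 1.1e-08).

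Several classes of growth and RNA genes were mostly called on the lower side. Of 48 genes of S phase, 38 were lower and none higher (35 of the 39 brighter ones, median -0.542). E2F2, an activator of these genes, fell 2.18-fold, RRM2, a ribonucleotide reductase subunit, 2.08-fold, CDT1, a licensing factor, 1.89-fold and ORC1, of the origin recognition complex, 1.86-fold with 2 of 4 Dox arrays above background (adjusted p = 3.2e-08, 8.4e-07, 1.1e-06 and 4.8e-06). Of 49 genes of G2 and mitosis 26 were lower and 1 higher (median -0.268). Of 45 genes of nucleolar ribosome assembly 31 were lower and none higher (29 of the 35 brighter ones, median -0.334), led by LYAR (2.27-fold), NOP16 (1.85-fold), BRIX1 (1.84-fold) and PPAN (1.69-fold; adjusted p = 3.2e-08, 7.9e-07, 1.3e-08 and 1.8e-07). Of 75 cytosolic ribosomal protein genes 1 was lower and none higher (median -0.041), although 67 of them are among the brighter genes. That 1 gene, RPL22, changed by -0.19 (adjusted p = 0.034) and its call is lost when 1 of 6 of the 8 arrays is left out (each except Dox replicate 4 and vehicle replicate 3). Without vehicle replicate 3, 4 genes of the class are lower. Mitochondrial ribosomal proteins were near the share of all brighter genes on the lower side only. They gave 20 lower and 5 higher of 78. Of the brighter ones 26.8% were lower, against 23.1% of all brighter genes, and 7.04% higher, against 20.7%. Without Dox replicate 2 or 3 or vehicle replicate 1 or 2, 13 were lower, and with median scaling 2 were higher. Lower as well were 14 of 23 nucleoporins (NUP35, 1.63-fold), 7 of 13 subunits of the RNA exosome (EXOSC2, 1.98-fold) and 20 of 57 splicing factors, against 0, 0 and 1 higher. Of 26 tubulins 10 were lower and 1 higher (median -0.216), with TUBA3D (2.03-fold), TUBA3E (1.6-fold) and TUBB3 (1.5-fold) leading (adjusted p = 3.9e-09, 8e-05 and 3.9e-05).

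Genes that restrain the cell cycle were not raised as a block. Of 32 such genes 11 were higher and 7 lower (median 0.042). TOB1, an antiproliferative protein that slows translation of growth genes, read 11.11, 10.72, 10.72 and 10.65 with Dox against 9.20, 8.97, 8.90 and 9.08 with vehicle, 3.4-fold higher (adjusted p = 6e-10), and GADD45G rose 1.85-fold (adjusted p = 9.9e-08). RPRML and KLF4, a Krüppel-like factor, fell (2.02-fold for KLF4, with 2 of 4 Dox arrays above background, adjusted p = 2.3e-07). Some large classes were mostly below background. Of 86 potassium channel genes 74 were not above background on any of the 8 arrays, 1 was higher and 4 were lower (2 without vehicle replicate 2 or 4). Of 54 chemokines and their receptors 49 were not above background, 1 was higher and none lower, and none of 21 UDP-glucuronosyltransferases was above background or called. Of the 11 measured control genes 2 were higher and 2 lower, with changes between -0.22 and 0.41. GAPDH and ACTB were not called (0.07 and 0.16, adjusted p = 0.52 and 0.14).

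Whether the day 1 changes lasted was tested with the interaction of day and treatment. Of the 233 genes raised at least 2-fold on day 1, 230 were also called higher on day 2, 1 was called lower and 2 did not pass. Of the 61 lowered genes 60 were called lower again and 1 did not pass. The change was larger on day 2 by the test for 108 of the raised and 25 of the lowered genes, and larger on day 1 for 23 and 7. Of all genes called on day 1, 226 changed more on day 1 (148 from the authors' normalized table), and of all genes called on day 2, 1953 changed more on day 2. Of the 103 genes switched on, 65 met the same rule on day 2, as did 13 of the 32 switched off.

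The 8 genes with the largest difference between the days, among those counted under day 1, include some with a day 2 change near 0. Others had a sign that turned. FGFR3 and TNFAIP8L1 had changes of similar size and opposite sign, so a larger size on day 1 was not shown for them. DDIT4, an inhibitor of mTORC1 signaling (chromosome 10, 72273924 to 72276036), read 12.54, 12.57, 12.38 and 12.49 with Dox against 10.81, 10.85, 10.77 and 10.60 with vehicle, 3.34-fold higher on day 1, whereas its day 2 log2 fold change was -0.30 and was called lower (adjusted p = 0.0017; difference of 2.03 between the days, interaction adjusted p = 2.3e-10). DHRS3 went up by 1.38 on day 1 and its day 2 value was -0.01. XBP1 behaved alike, with 1.15 and 0.03, and UNC5A, a netrin receptor, with 0.99 and -0.11 (interaction adjusted p = 1.7e-08, 1.3e-07 and 2.4e-07 for these 3 genes). ID1 fell on day 1 and was at -0.18 on day 2 (interaction adjusted p = 3.5e-06). FGFR3, a fibroblast growth factor receptor, read 7.59, 7.48, 7.58 and 7.40 with Dox against 8.17, 8.40, 8.51 and 8.34 with vehicle on day 1, a change of -0.84, and on day 2 its change was 0.75 (interaction adjusted p = 1.7e-08), although a second probe did not pass the test on day 1. ITPKA, an inositol trisphosphate kinase, and TNFAIP8L1, of the TNFAIP8 family, rose by 0.84 and 0.63 on day 1, against -0.43 and -0.54 on day 2, with ITPKA above background on 2 of 4 vehicle arrays of day 1 (interaction adjusted p = 0.00027 and 1.8e-05). These differences also carry any change of the vehicle cultures between the days, and a difference between chips was not tested.

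**Figure D5:**
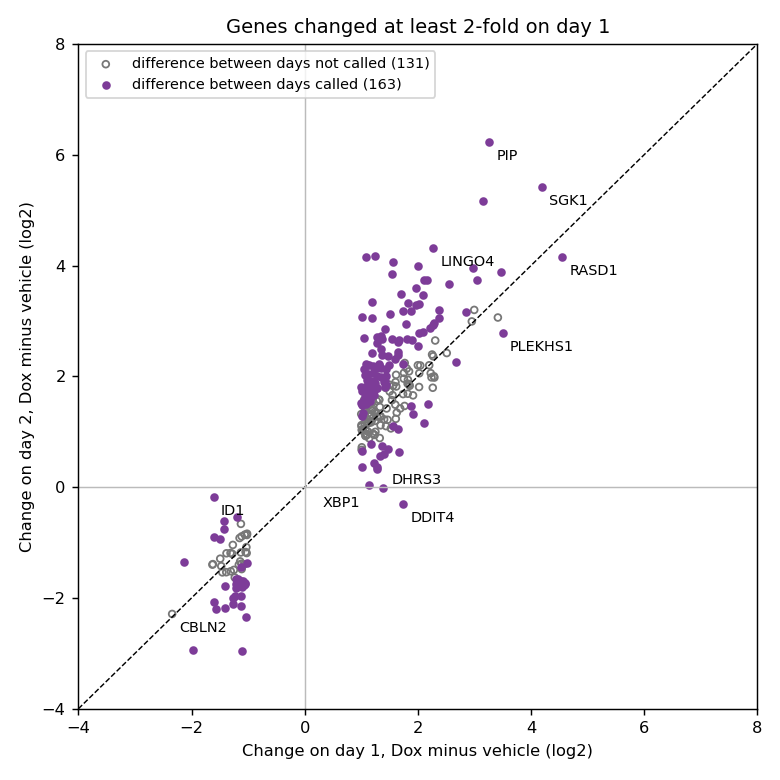
Log2 change on day 2 against that on day 1 (Dox minus vehicle) for the 294 genes changed at least 2-fold on day 1, with purple points for genes whose change differs between the days (interaction adjusted p under 0.05, 163 genes), open circles for the other 131, and the dashed line where both days are equal. Nearly all genes keep their sign, DHRS3 and XBP1 lie near 0 on day 2, and DDIT4 is the 1 gene called with the opposite sign.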

How the data were processed

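RNA of C4-2B/Rx2dox cultures, 1 array per culture and 4 biological replicates per group, was hybridized to Illumina Human Ref-8 version 3 BeadChips. The deposited values are bead signal intensities without background correction or scaling, each with a detection p-value that the authors exported from BeadStudio against 664 negative controls. The authors' second table holds log2 values, background-corrected by a model and quantile-normalized, and served as an alternative. Signals of 24526 probes were corrected with normexp from the detection p-values (offset 16), quantile-normalized over 16 arrays and taken to log2 (limma 3.58.1, R 4.3.3). Group means of all 16 arrays were fitted with lmFit and eBayes, and adjusted p is by Benjamini-Hochberg over all probes (two-sided, threshold 0.05). This offset compresses folds of dim genes. A gene was represented by its probe with the highest mean, 2692 probes without a gene name were tested but not counted, and 16906 of 16922 genes have a RefSeq position. On data simulated for this comparison with 16 arrays, changes were placed only in probes above the median level. The fit recovered 99% of 2-fold and 82% of 1.5-fold changes there, and recovery for dimmer probes was not tested.

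A bound ("at least") sets the bright group's mean against the dim group's, each dim array taken at the higher of its own value and its lowest value above background. Brighter genes are the 40% with the highest mean. Median signals per array were 124.9 to 139.2 with Dox and 119.1 to 124.2 with vehicle, and no pair of arrays was identical. Named were the 15 largest rises and falls outside the set named in the study's own text and tables and without overlap between groups. Also named were the 10 largest switched on and off, and the 8 largest differences between days among genes that changed more on day 1. Up to 4 called members of each class described were named, with the 5 largest changes in each direction among the genes the study names. Members of the RUNX family, markers and control genes were added. The members, lists and classes were chosen with earlier results of these data known. Alternatives were the background correction, offset, scaling, filter, moderation, the replicate block, the 8 arrays alone, averaged probes, the detection threshold and each array left out. No chip position was used as a batch. A family of genes withheld from this text is not reported here.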

Additional observations from a re-analysis of the deposited data

Results flagged for a closer look

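In 12 of the 288 groups of 4 arrays (4.17%), over the 144 genes named, the highest or lowest array passed Dixon's criterion, which chance flags in about 1 in 20 groups. Among the genes with large changes these were PLEKHS1 on Dox replicate 1 (8.94), LINGO4 on Dox replicate 3 (7.67), RIN2 on vehicle replicate 3 (7.97) and SLC52A3 on vehicle replicate 1 (4.71, log2 intensity). TOB1 (11.11) and CDT1 (8.66) stood apart on Dox replicate 1 and GSTM1 (8.19) on Dox replicate 4. SPDEF (11.24) and E2F2 (8.47) did so on vehicle replicate 1 and EXOSC2 (8.68) on vehicle replicate 4. SLC40A1 stood apart on replicate 1 of both groups, at 6.52 with Dox and 5.33 with vehicle. In all of these genes the Dox and vehicle arrays did not overlap, which the choice of PLEKHS1, LINGO4 and RIN2 required.

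For 78 of the 144 genes the change on day 1 differed from that on day 2 by the interaction test of limma (adjusted p under 0.05). The values below are the day 1 log2 change minus the day 2 log2 change. The day called larger is that of the larger absolute change, and this size was not itself tested. For LINC00161, PCDH20 and STC1 no Dox array was above background on either day. For DENND2A, DENND2B, BPIFB4, AGXT and SDCBP2 no vehicle array was. Background limits the changes of these genes on both days, so their differences are not measured sizes. The same limit holds on day 1 for the other genes given with a bound, and on day 2 for PLEKHS1 and LINGO4, whose vehicle arrays were then at background. Genes that rose on day 1 with a larger change than on day 2 were PLEKHS1 (0.71), EDN2 (0.95), DDIT4 (2.03), DHRS3 (1.39), ITPKA (1.27), TNFAIP8L1 (1.18), XBP1 (1.11), UNC5A (1.1), RASD1 (0.4), PPARG (0.42), TYRO3 (0.59) and LFNG (0.6). Further such genes were RAB43 (0.6) and GADD45G (0.56).

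Genes that rose on day 1 but changed more on day 2 were DENND2A (-0.7), GDPD5 (-1.11), DENND2B (-0.66), LINGO4 (-2.06), BPIFB4 (-1.64), ZDHHC11 (-0.72), AUTS2 (-0.76), AGXT (-0.98), SDCBP2 (-0.82), SGK1 (-1.21), PGC (-0.42) and PIP (-2.97). The same held for GSTA1 (-2.0), SLC37A1 (-0.49), SLC25A20 (-0.88), SLC25A34 (-0.91), HSD11B2 (-1.32), NR3C2 (-0.74), GSTA2 (-1.5), GSTM1 (-0.73), GSTA4 (-0.3), PLAAT4 (-1.11), TGM2 (-1.14) and NR2F1 (-2.16). The same held for ETV6 (-0.78), ELF5 (-0.5), SLC40A1 (-0.5), FOLR1 (-2.51), MERTK (-0.54), KITLG (-0.73), CD82 (-1.14), ATP6V0D1 (-1.13), GBP2 (-1.86) and IFI6 (-0.67). IFIT1 (-0.65) belongs here too. MTHFD2, which rose on day 1, had the opposite sign on day 2 (1.08), and KLK3, which passed no test on day 1, differed by -0.42.

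Among the genes that fell on day 1, the change was larger on day 1 for LINC00161 (-0.78), ID1 (-1.43), PMEPA1 (-0.7), MT1X (-0.56), PCDH20 (-0.67), PCDH7 (-0.82), FGFR3 (-1.59), LPL (-0.46), EFNB2 (-0.45) and HEY1 (-0.76). It was larger on day 2 for CDCA7 (0.47), CORO2A (0.73), STC1 (0.56), RPRML (0.96), MYB (0.63), CBFB (0.35), SPDEF (0.92), ATF3 (1.04), TRIB3 (1.5), MTHFD1L (1.01), E2F2 (1.03) and RRM2 (0.67). Others of this kind were CDT1 (0.82), ORC1 (0.47), LYAR (0.48), BRIX1 (0.36) and SLC45A3 (0.38).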

How the results depend on the processing

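The numbers of genes higher and lower with Dox moved by less than 1.5 times under every alternative run, between 1584 and 1982 higher and between 1632 and 2093 lower apart from leaving out arrays. With median scaling 1982 were higher and 1634 lower, and that scaling shifts the median change of all probes to -0.0463, against -0.00837 with quantile normalization. The counts of large changes depend on how background is handled. Without background correction 93 genes were at least 2-fold higher and 17 lower, and with an offset of 50 they were 135 and 27, all of them among the 233 and 61. Started from the authors' normalized table, 306 were higher and 89 lower at this limit, including all of the 233 and 61, and 148 genes changed more on day 1. With a detection p of at least 0.05 asked of the absent group, 27 genes were switched on and 3 off. Leaving out each of the 8 arrays in turn gave 1638 to 1709 higher and 1707 to 1816 lower genes, 227 to 245 and 59 to 66 at least 2-fold, 104 to 122 switched on and 35 to 47 off, and 193 to 231 and 1746 to 1886 with a larger change on day 1 and on day 2.

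Same-numbered Dox and vehicle cultures did not deviate together (correlations -0.0234 to 0.0898), so the numbers are not taken as pairs. With the replicate block 1776 genes were higher and 1897 lower, 233 and 61 at least 2-fold, and 213 and 1859 differed between the days, and no named gene changed its call. The alternatives for single genes and classes were chosen after seeing the data. Named genes kept their call in 2436 of these refits and lost it in 9, all of RPL22, and no called gene changed sign. Of the class counts 1191 stayed within 1.5 times and 99 did not, mostly counts of a few genes. The class medians were less stable. In 513 refits they stayed within the SD of the class's median level among replicate arrays, and in 132 they moved further. With median scaling 22 moved and 16 stayed, and with the filter on dim probes 23 moved and 14 stayed. The number of arrays limits the precision, and dim probes have only bounds.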
